A study of Mus musculus with 39 samples.

Results

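Consensus peak cluster 2 was the smallest of the 8 clusters of NOTCH and RBPJ peaks from the embryonic mouse cortex. Its members were taken from the deposited consensus peaks by their cluster number and restricted to nuclear chromosomes, which left 990 of 20809 nuclear peaks. The authors had grouped the peaks by k-means clustering of binding intensity in the 4 conditions below. Binding, peak calls and peak widths therefore chose the members and are given as a description, without a test. Gene annotation did not enter the clustering. Sequence entered it through GATC sites, which delimit the bins of the binding signal. Annotation and sequence were compared between cluster 2 and the other 19819 peaks.

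The peaks came from Targeted DamID (TaDa), in which a DNA adenine methyltransferase (Dam) fused to a protein methylates GATC sites close to where that protein sits on chromatin. Constructs were electroporated in utero into wild-type MF1 mouse cortex at E13.5 and the tissue was dissected at E14.5. Expression came from a Hes5 promoter for radial glial cells (RGCs) or a Tα1 promoter for intermediate progenitor cells (IPCs), so cell type here means promoter activity in dissected tissue. The 4 lists were RGC RBPJ (human RBPJ1 fused to Dam, 3 samples), RGC Notch (2 samples of mouse NdECD, which keeps the transmembrane domain, and 2 of mouse NICD, the free intracellular domain), IPC RBPJ (human RBPJ1, 3 samples) and IPC Notch (mouse NICD, 4 samples). NdECD and NICD both lack the extracellular domain, and the embryos kept their own Notch genes. The RBPJ and Notch lists of a cell type shared their Dam-only control samples (5 labelled RGC Dam-only and 4 labelled IPC Dam-only). Replicates had been merged into 1 list per condition before deposition. The lists give positions only, so depth, peak height and the spread between samples are unknown here, and every interval covers counting error over peaks.

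RBPJ is the DNA-binding protein of the Notch pathway. When a Notch receptor is activated by a ligand on a neighbouring cell, its intracellular domain is released, enters the nucleus and joins RBPJ and Mastermind to switch on targets such as Hes1 and Hes5. These targets encode repressors that hold RGCs, the neural stem cells of the cortex, in a progenitor state. IPCs arise from RGCs and go on to produce neurons. At some targets RBPJ binds as a pair on sites that face each other a fixed distance apart, and the Hes1 promoter is the best-known example.

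The sequences below are the paired RBPJ sites found in the peaks and are shown because the 1 pair in cluster 2 was that of Hes1. The RBPJ words searched were the 6 words of the form NGTGNGAA with C or T as the first letter and G, A or T as the fifth, on both strands. A pair was counted where 2 of them faced each other with 15 to 17 bases between them. All sequences are from GRCm38.p6 (mm10), plus strand, 5′ to 3′, and capitals mark the RBPJ words. The cluster 2 pair lay at chr16:30065258-30065289 with 16 bases between the words. The others were near Sox9 (cluster 6, chr11:112870553-112870583, 15 between), near Plekhg5 (cluster 6, chr4:152107007-152107038, 16 between) and nearest Tbc1d5 (cluster 4, chr17:51370645-51370675, 15 between). A further pair in cluster 5 overlapped an exon and is not printed.
Hes1, cluster 2: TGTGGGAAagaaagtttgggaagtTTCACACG
Sox9, cluster 6: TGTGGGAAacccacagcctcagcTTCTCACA
Plekhg5, cluster 6: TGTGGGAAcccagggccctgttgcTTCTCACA
Tbc1d5, cluster 4: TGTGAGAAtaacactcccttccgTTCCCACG
The Hes1 pair stood within the 150 bases before an annotated Hes1 start site, chr16:30065190-30065339, which are printed here to show its setting.
Hes1 upstream: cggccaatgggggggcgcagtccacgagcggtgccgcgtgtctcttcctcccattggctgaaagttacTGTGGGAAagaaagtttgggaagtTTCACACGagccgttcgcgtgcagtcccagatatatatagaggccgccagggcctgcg

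Paired sites were rare in all peaks. They occurred in 1 of 990 cluster 2 peaks (0.101%, 95% Wilson interval 0.0178 to 0.570) and in 4 of the other 19819 peaks (0.0202%). The difference of 0.0808 percentage points had a 95% interval from -0.00819 to 0.550 and did not exclude 0. With 12 to 20 bases allowed between the words, cluster 2 still held 1 peak with a pair.

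Single RBPJ words lay close together in a few other members, shown here by some of the windows with the most words within 100 bases outside exons. These windows were picked after their sequence was seen and were not tested. Gpsm2 encodes a regulator of spindle orientation, and its window (chr3:108722667-108722736) held 3 words. The Zbtb20 window (chr16:43311217-43311255) and the Mas1 window (chr17:12810450-12810520) each held a repeated word. In the Cntn4 window (chr6:106466722-106466757) the words adjoined each other, in a member that holds no GATC.
Gpsm2: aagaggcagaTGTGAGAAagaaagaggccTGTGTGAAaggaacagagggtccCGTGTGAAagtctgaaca
Zbtb20: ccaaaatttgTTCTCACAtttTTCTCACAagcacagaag
Mas1: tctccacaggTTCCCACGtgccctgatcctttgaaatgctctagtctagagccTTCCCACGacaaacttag
Cntn4: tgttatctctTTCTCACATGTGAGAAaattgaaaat
The Gpsm2 member was called in the RGC RBPJ list alone, as were those of Mas1 and Cntn4, and the Zbtb20 member was called in the RGC RBPJ, IPC RBPJ and IPC Notch lists.

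Members were often called in several lists. RGC RBPJ peaks overlapped 781 of the 990 members (78.9%, 95% Wilson interval 76.2 to 81.3), beside 67.6% of all nuclear consensus peaks. IPC Notch peaks overlapped 460 members (46.5%, 43.4 to 49.6), beside 10.1% of all peaks. RGC Notch peaks overlapped 347 members (35.1%, 32.1 to 38.1), beside 17.7%, and IPC RBPJ peaks overlapped 320 (32.3%, 29.5 to 35.3), beside 26.2%. All 4 shares were above those of all peaks, and that of IPC Notch by the widest ratio. Because the clusters were made from the same binding signal, these differences follow from the choice of members.

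By calls, the label of cluster 2 as shared by cell types described 47.4% of the members. Members called in both cell types numbered 469 (47.4%, 44.3 to 50.5), beside 11.5% of all nuclear consensus peaks. Another 376 members (38.0%) were called in RGC lists alone, beside 67.5% of all other peaks, and 145 (14.6%) in IPC lists alone, beside 22.8%. The corresponding share called in both cell types was 8.54% in cluster 4, 26.7% in cluster 6 and 33.4% in cluster 7. When a list had to cover at least 50% of the consensus peak, those called in both cell types made up 31.7%, and among members of at least 1000 bp they made up 60.3%.

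By number of lists, 404 members (40.8%) were called in 1 list, 320 (32.3%) in 2, 200 (20.2%) in 3 and 66 (6.67%) in all 4. Among the other peaks, 85.0% were called in 1 list and 0.378% in all 4. Of the 141 nuclear consensus peaks called in all 4 lists, 46.8% were in cluster 2. The most common single combination was RGC RBPJ alone with 243 members, which was 2.24% of all peaks of that kind. RGC RBPJ with IPC Notch followed with 117 members, 22.0% of all such peaks. RGC RBPJ with RGC Notch and IPC Notch gave 83 members, 34.9% of all such peaks, and RGC RBPJ with IPC RBPJ and IPC Notch gave 75, or 34.6%.

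**Figure D1:**
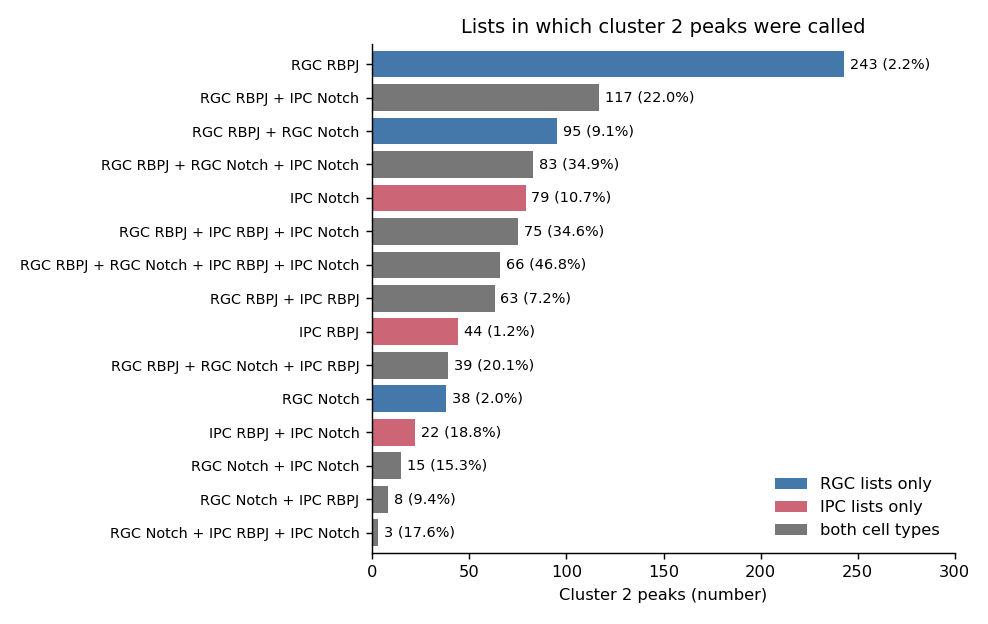
Number of cluster 2 peaks (x axis) in each combination of the 4 lists (y axis), with the share of all nuclear consensus peaks of that combination that fell in cluster 2 in parentheses. RGC RBPJ alone holds the most members (243) but 2.24% of its kind, whereas 46.8% of the peaks called in all 4 lists are members.

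Notch calls without an RBPJ call in the same cell type made up a smaller share in cluster 2 than in all other peaks. Of the 460 members in the IPC Notch list, 294 (63.9%, 59.4 to 68.2) were not in the IPC RBPJ list, beside 80.1% of all other peaks in the IPC Notch list, 79.4% in cluster 4, 89.1% in cluster 6 and 44.7% in cluster 7. In RGCs, 64 of the 347 members in the RGC Notch list (18.4%, 14.7 to 22.9) were not in the RGC RBPJ list, beside 60.1% of all other such peaks, 43.6% in cluster 4, 42.8% in cluster 6 and 17.8% in cluster 7. These shares come from the lists behind the clustering and are a description. Members called by RGC RBPJ and IPC Notch but not by IPC RBPJ numbered 200 (20.2%), beside 2.88% of all other peaks, 16.1% of cluster 6, 3.71% of cluster 7 and 3.34% of cluster 4. The RGC RBPJ list held 14100 peaks and the IPC RBPJ list 5502, and how far list size set these shares was not tested.

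The median cluster 2 peak was narrower than the median of all other peaks. Width in cluster 2 had a median of 1602 bp, quartiles of 916 and 2604 bp and a range from 215 to 10441 bp, beside a median of 1909 bp in all other peaks. Median width differed with the number of lists, from 968.5 bp with 1 list through 1694 bp with 2 and 2699 bp with 3 to 3447 bp with all 4. Overlapping list peaks had been merged into 1 consensus peak, so width and number of lists are tied by construction. Members called in both cell types had a median of 2378 bp, those of RGC lists alone 1166 bp and those of IPC lists alone 875 bp. Where a list was called, its peaks covered a median of 100% of the member in the case of RGC RBPJ, 91.8% with RGC Notch, 74.7% with IPC Notch and 67.4% with IPC RBPJ.

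The 5 widest members lay at Tubb2b, Fezf2, Meis2, Mef2d and Prdm12. The widest, 10441 bp, covered the start of Tubb2b, a beta-tubulin of young neurons, and was called in all 4 lists. That of 10102 bp covered Fezf2, a selector of deep-layer projection neurons, and was called in RGC RBPJ, RGC Notch and IPC Notch. The 9271 bp member lay 6929 bp downstream of a start site of Meis2, a homeobox factor, and was called in all 4 lists. The 8506 bp member lay 35846 bp from a start site of Mef2d, an activity-regulated transcription factor, and the 8499 bp member covered the start of Prdm12, a regulator of neuronal fate.

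Cluster 2 peaks lay mostly away from start sites. They covered a start site of a protein-coding gene in 143 cases (14.4%, 12.4 to 16.8), beside 16.7% of the other peaks. That difference of -2.21 percentage points (95% interval -4.33 to 0.172) did not exclude 0. Against clusters 4, 6 and 7, which served as a narrower comparison set, the share was lower by 10.3 percentage points (95% interval of the difference -12.6 to -7.71). The same held against each of them, with differences of -8.47 (-11.2 to -5.54) for cluster 4, -6.80 (-9.49 to -3.95) for cluster 6 and -15.2 (-18.0 to -12.3) for cluster 7. Against clusters 4, 6 and 7 the interval also excluded 0 at the level corrected for all 21 measures. Wider peaks can cover a start site more easily, and median width was 1905.5, 2309 and 2010 bp in clusters 4, 6 and 7, beside 1602 bp in cluster 2. The part of width in the differences from these clusters was not tested. With the start sites of every annotated gene, non-coding genes included, the difference from all other peaks was 0.797 percentage points, so its direction turned.

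The median distance from a member to the nearest start site was 25775 bp, with quartiles of 1514 and 96506 bp, beside a median of 20759 bp in the other peaks. On the log10 scale of distance in bp plus 1, the means were 3.77 and 3.70 and differed by 0.0645 (-0.0484 to 0.177), which did not exclude 0. Medians in clusters 4, 6 and 7 were 16036, 18452 and 8577 bp, and the log10 mean of cluster 2 was higher than theirs by 0.470 (0.349 to 0.590). Peaks on a start site enter these means and medians with a distance of 0. The difference from clusters 4, 6 and 7 is therefore not separate from that in start-site share, and the part of width in it was not tested. Beside the 143 members on a start site, 83 (8.38%) lay within 1 kb of one, 134 (13.54%) at 1 to 10 kb, 392 (39.6%) at 10 to 100 kb and 238 (24.0%) beyond 100 kb. The share off a start site but within 1 kb was 5.13% in the other peaks. It was 6.23% in cluster 4, 4.69% in cluster 6 and 8.26% in cluster 7. Members upstream and downstream of the nearest start site were nearly equal in number, at 424 and 423, and 227 of the latter lay within the gene.

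**Figure D2:**
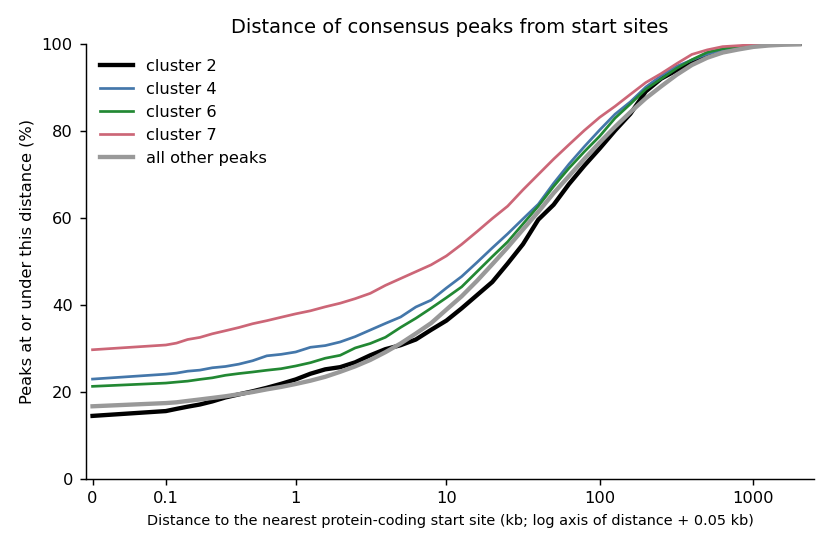
Cumulative percentage of peaks (y axis) at or under each distance from the nearest protein-coding start site (x axis, kb, log scale of distance plus 0.05 kb) for cluster 2, clusters 4, 6 and 7 and all other nuclear peaks. The cluster 2 curve starts at 14.4% on a start site, close to all other peaks at 16.7%, and below clusters 4 (22.9%), 6 (21.2%) and 7 (29.7%).

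By the feature at their midpoint, 430 members (43.4%) were intergenic and 414 (41.8%) were in introns of protein-coding genes. A further 173 (17.47%) lay in the 5 kb upstream of a start site, which can overlap another gene, and 75 (7.58%) in exons. The intergenic share exceeded that of the other peaks (38.5%) by 4.97 percentage points (1.84 to 8.15), and the intronic share was below theirs (47.6%) by a difference of -5.76 (-8.87 to -2.58). Both passed the corrected level, with the sign held on 16 and 17 of 20 chromosomes. Both calls were lost when peaks were thinned to 1 per 100 kb within each set, where the differences were 1.73 and -2.79, and in peaks with at least 1 GATC, where they were 4.52 and -5.05. Upstream and exonic shares differed from those of the other peaks by 0.869 (-1.43 to 3.41) and -0.502 (-2.04 to 1.35) percentage points, and both intervals held 0.

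By number of lists, the share on a start site was 13.6% (10.6 to 17.3) with 1 list, 14.7% (11.2 to 18.98) with 2, 15.5% (11.1 to 21.2) with 3 and 15.2% (8.44 to 25.7) with all 4. These intervals overlap throughout. Median distance was 20358 bp with 1 list and 39853 bp with all 4. Members of RGC lists alone were on a start site in 17.8% (14.3 to 22.0), those of both cell types in 13.2% (10.5 to 16.6) and those of IPC lists alone in 9.66% (5.84 to 15.6).

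Cluster 2 peaks were spread along the chromosomes and mixed with peaks of other clusters. Another consensus peak of any cluster lay within 50 kb of 771 members (77.9%), beside 69.1% of all consensus peaks. The same share was 74.9% in cluster 4, 78.6% in cluster 6 and 74.4% in cluster 7. Another cluster 2 peak lay within 50 kb of 147 members (14.8%), and the median gap to the nearest other member was 454509 bp. The share with a neighbour of the same cluster depends on the number of peaks in a cluster. It was 18.9% for the 2038 peaks of cluster 4, 25.5% for the 2241 of cluster 6 and 21.1% for the 2289 of cluster 7. Among the 771 nearest neighbours, 62 (8.04%) were themselves in cluster 2, beside 4.76% of all peaks, 125 (16.2%) in cluster 6, beside 10.8%, and 60 (7.78%) in cluster 8, beside 14.4%. Members made up between 3.19% of the consensus peaks of chromosome X and 6.35% of those of chromosome 13, and none lay on chromosome Y, which had 1 consensus peak.

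Chains of members with gaps of at most 50 kb gave 68 groups of 2 or more and 6 groups of 3 or more. The longest held 5 members. One spanned 71.2 kb (chr7:79466396-79537619) between Polg and Rhcg, where the nearest start sites of any gene included those of the microRNA Mir9-3 and its host transcript. Mir9-3 encodes miR-9, a microRNA of neural progenitors. Of its members, 3 were called in RGC RBPJ alone. The other chain of 5 spanned 106.8 kb (chr3:145831535-145938284) across Ddah1, 2410004B18Rik and the upstream sequence of Bcl10, an adaptor of NF-κB signalling. Of those members 4 were called in more than 1 list. Ddah1 is one of the radial glia markers listed for this work.

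A chain of 4 members over Notch1 itself needs to be read with the constructs in mind. These members lay within 6.96 kb (chr2:26458793-26465756), were 2603, 794, 1084 and 1183 bp wide, and were separated by 335 to 521 bp. All 4 were called in the IPC Notch list alone. They covered all bases of the last 7 of 34 coding exons of the Notch1 reference transcript (2456 of 2456 coding bases) and stopped 710 bp short of the next coding exon. The last exons of Notch1 encode its intracellular part, which the Dam-fused NICD construct of the IPC Notch samples carries and Dam-only lacks. The NICD and NdECD constructs of the RGC Notch samples carry the intracellular part too, and none of the 4 members was called in the RGC Notch list. Binding at these exons and DNA of the construct cannot be told apart in these files. The third of the 4 held no GATC. Without them, Notch1 kept 1 cluster 2 peak (chr2:26533033-26533753, 16370 bp upstream), called in RGC Notch and IPC Notch.

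**Figure D3:**
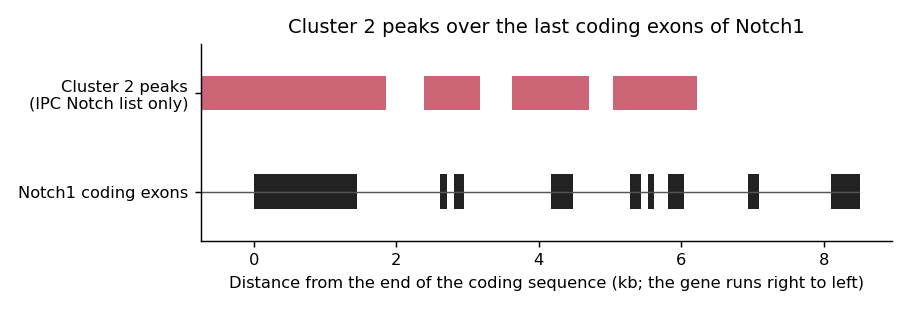
Position of the 4 cluster 2 peaks (upper row) and of the last coding exons of Notch1 (lower row) by distance in kb from the end of the coding sequence (x axis), with the gene running from right to left. The peaks cover the last 7 coding exons whole and end 710 bp before the eighth from the end.

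The 990 members had 826 nearest protein-coding genes, which is 3.77% of the 21938 protein-coding genes and 9.73% of the 8492 genes nearest to any consensus peak. One member each was found at 706 genes, 84 genes had 2, 31 had 3, 2 had 4 and 3 had 5. For 163 genes all consensus peaks were in cluster 2. The genome nearest to these genes was large, with a median of 222.5 kb for genes with a cluster 2 peak, 93.0 kb for genes with other consensus peaks only and 44.9 kb for all genes. Its part in the counts per gene and per list was not tested.

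The 5 genes with more than 3 members were Msi2, Notch1 and Sorl1 with 5 each and Ptch1 and Parp11 with 4 each. Msi2, an RNA-binding protein of neural stem cells, had a member called in all 4 lists at 105923 bp from its nearest start site (chr11:88479052-88484224) and one over a start site called in RGC RBPJ and RGC Notch (chr11:88588136-88591516). Its other members were called in RGC Notch alone, IPC Notch alone, and RGC RBPJ with RGC Notch and IPC RBPJ. Sorl1, a sorting receptor, had members only at a distance, from 58756 to 391952 bp. Ptch1, the receptor that holds Hedgehog signalling off, had a member over a start site (chr13:63541821-63546368, RGC RBPJ and IPC Notch) and others at 3154, 8098 and 69427 bp. Parp11 had a member over its start site and 3 others at 41328 to 126912 bp.

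Hes1 and Hes5, the main effectors of the pathway in RGCs, each had a member over the start site. The Hes1 member was called in all 4 lists and was 1 of the 12 consensus peaks nearest to Hes1, the others belonging to clusters 4, 5, 6 and 7. Besides the pair shown above, its 7627 bp held 3 further RBPJ 8-base words. The Hes5 member (chr4:154957094-154961156) was called in both RBPJ lists and in neither Notch list, and held 4 such words. The RGC constructs, Dam-only included, carry a Hes5 promoter. The other 2 consensus peaks of Hes5 were in cluster 6. Nepro, which acts in the progenitor programme of the early cortex, had 2 members 43656 and 38262 bp upstream, the first called in both RGC lists and the second in RGC Notch and both IPC lists. Nrarp, a feedback inhibitor of Notch, had 3 consensus peaks and none in cluster 2, and its start site lay in a cluster 7 peak called in all 4 lists.

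Of the other genes in the list of Hes and Hey repressors, Heyl had a member over its start site called in RGC RBPJ. Bhlhe40, which is in that list without being a Hes or Hey gene, had one over its start site called in both RGC lists. With Bhlhe40 counted, 4 of the 12 genes in that list had a member. Of all protein-coding genes 3.77% had a member. Among Notch receptors 1 of 4 did (Notch1, above). Among ligands 2 of 8 did. Jag1, a ligand, had one over its start site (chr2:137112738-137116925, both RBPJ lists), and Dner one at 73397 bp (RGC RBPJ and IPC Notch). The modulators of the signal had 1 of 28, Nepro, which is 3.57% and close to the share of all genes. The nuclear cofactors had 3 of 20, among them Ctbp2, a corepressor, at 122 bp (RGC Notch), and Maml3, a Mastermind coactivator, at 34123 bp (RGC RBPJ and both Notch lists). Tle and Id factors had 4 of 10, of which Tle2, a corepressor recruited by Hes proteins, was the closest at 337 bp.

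Of 30 radial glia transcription factors 14 had a member (46.7%), beside 3.77% of all protein-coding genes. All 30 had a consensus peak of some cluster, and together they were nearest to 23 members. Nr2f1, which patterns cortical areas, Sox2, a factor of neural stem cells, Prdm16 and Gli3 had 3 each. Their consensus peaks of any cluster numbered 17, 23, 19 and 21, in that order. The Nr2f1 start site lay in a 7621 bp member called in both RGC lists and IPC RBPJ. The Sox2 member nearest to its start lay 5314 bp upstream (chr3:34638547-34645091) and was called in RGC RBPJ and both IPC lists. The 3 Gli3 members lay 76692, 153970 and 249559 bp from a start site, and the last was called in all 4 lists.

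Of 17 radial glia markers 8 had a member (47.1%), beside 3.77% of all protein-coding genes, and all 17 had a consensus peak of some cluster. Fabp7, the brain lipid-binding protein of RGCs, had a single consensus peak, a member of 5175 bp over its start site (chr10:57781836-57787010) called in all 4 lists. The 150 bases before that start site (chr10:57784731-57784880) are shown because they hold an RBPJ word near their 5′ end, here in capitals.
Fabp7 upstream: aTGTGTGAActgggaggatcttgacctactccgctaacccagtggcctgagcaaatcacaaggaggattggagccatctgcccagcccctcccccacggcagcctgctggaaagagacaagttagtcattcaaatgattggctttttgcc
Ptprz1, a receptor phosphatase of RGCs, had 3 members 38004 to 239821 bp upstream. Slc1a3, the glutamate transporter of RGCs, had one over its start site (both RGC lists), and Hopx, a marker of outer RGCs, one at 6882 bp (RGC RBPJ). Start sites in members called in all 4 lists included those of Hes1, Fabp7, Fzd2, Tubb2b, Zeb2, Tanc1, Cers6, Lrrc4c and Gm11627.

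Genes of IPCs and differentiating neurons had members too, in lists to set beside 3.77% of all protein-coding genes. Of the genes nearest to any consensus peak, 9.73% had a member. Among regulators of IPCs 2 of 16 did: Neurog2, the proneural factor of the dorsal cortex, at 4747 bp upstream (RGC Notch and IPC RBPJ), and Eomes, the defining factor of IPCs, at 159146 bp (RGC RBPJ and IPC Notch). The list drawn up as proneural bHLH factors, which is not limited to proneural genes, had 3 of 18. These were Neurog2, Tcf4 with 2 members and Olig2 with 1, and Olig2 is also in the list of other lineages. Projection neuron identity factors had 10 of 20, with 3 members each at Foxp1 and Pou3f3 and 2 each at Etv1 and Pou3f2. The Pou3f3 members lay far upstream of its start, at 437009, 774949 and 883116 bp. Post-mitotic neuron genes had 2 of 20, Syt1 and Gria2, which is 10% and close to the 9.73% of genes nearest to any consensus peak. Of the SoxC, SoxD and SoxE factors 4 of 9 had a member (Sox6, Sox5, Sox9 and Sox4), of the POU factors 2 of 9, and of the TALE homeobox factors 3 of 11 (Meis2 with 3 members, Meis1 with 2 and Pknox1 with 1).

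Of the other signalling pathways, Hedgehog had the highest share, at 6 of 14 genes and 13 members. The share of all protein-coding genes with a member was 3.77%. Beside Ptch1 and Gli3, Gas1, a coreceptor, had 3 members at 49637 to 174709 bp and Gli1, a transcriptional target of the pathway, had one at 330 bp that was its single consensus peak. The Fgf pathway had 5 of 21, among them Fgf15 (start site in a member called in RGC RBPJ and both IPC lists), Spred1, an inhibitor of the pathway (start site, both RGC lists), and Fgfr1 (10140 bp, IPC Notch). Wnt and beta-catenin had 4 of 26, with members over the starts of Sfrp1, a secreted inhibitor, and Fzd2, a receptor. Bmp and Smad had 3 of 21 (Acvr2a with 2 members, Tgfbr1 and Bmpr1b). Cell cycle regulators had 5 of 25, with members over the starts of Ccne2 and E2f3. None of 35 ribosomal protein genes had a member, and 2 of 25 genes of other lineages did (Olig2 and Dlx2).

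Over the 22 lists, 77 of 379 genes matched by symbol had a member (20.3%). This stands beside 3.77% of all protein-coding genes and 9.73% of genes nearest to any consensus peak. A consensus peak of any cluster was found at 30 of 30 radial glia transcription factors, 20 of 20 projection neuron identity factors and 9 of 35 ribosomal protein genes. Genes with a member had a median of 4 consensus peaks, those with other consensus peaks only had 1, and its part in these shares was not tested. The lists share some genes, and they differed in the genome around their genes. The median stretch nearest to their start sites was 306.3 kb for radial glia transcription factors, 772.7 kb for projection neuron identity factors and 15.8 kb for ribosomal protein genes.

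**Figure D4:**
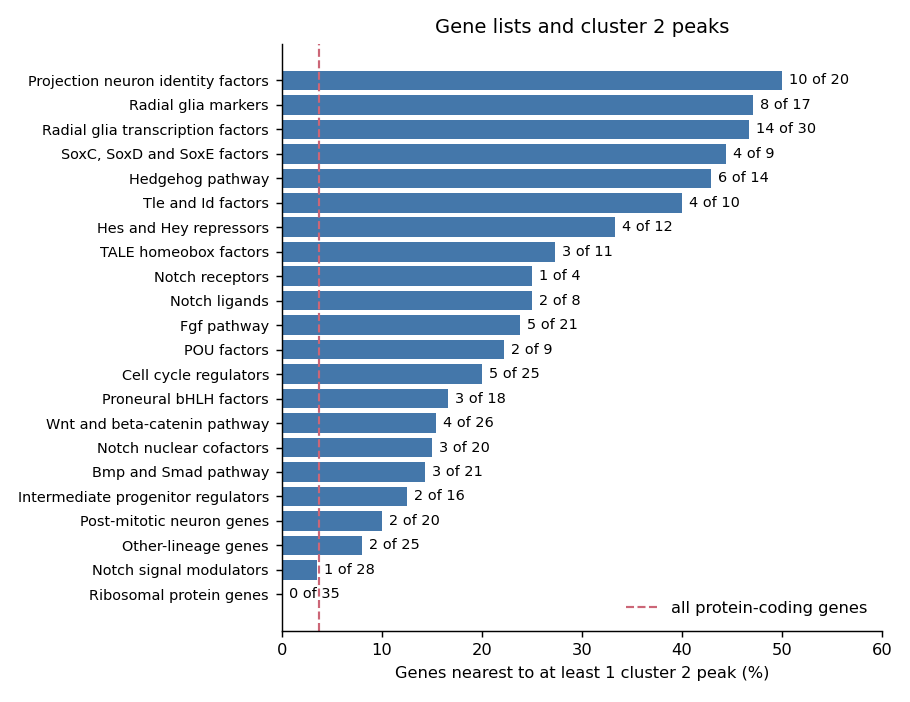
Percentage of the genes of each list (y axis) that are nearest to at least 1 cluster 2 peak (x axis), with counts beside the bars and the share of all protein-coding genes (3.77%) as a dashed line. Projection neuron identity factors (10 of 20) and radial glia lists (14 of 30 and 8 of 17) have the highest shares, and ribosomal protein genes have none.

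The sequence of cluster 2 peaks held more RBPJ core words than that of the other peaks. TTCCCA, counted on both strands, occurred 1.303 ± 0.0266 (SE) times per kb in cluster 2 and 1.16 times in the other peaks, a difference of 0.142 (95% interval 0.0893 to 0.196) that passed the corrected level. The direction was the same on 19 of 20 chromosomes, and the call held in each alternative tried, among them wide peaks only, thinned peaks and a linear model with GC content and width. The density exceeded that of cluster 4 by 0.133 (0.0717 to 0.195) and that of cluster 6 by 0.210 (0.151 to 0.268), whereas the difference from cluster 7 was -0.0311 (-0.0916 to 0.0293). At least 1 TTCCCA was present in 81.3% of members and in 83.0% of the other, wider peaks. The 6 RBPJ words of 8 bases, of which those ending in GGGAA contain TTCCCA on the other strand, occurred 0.332 and 0.298 times per kb. Their difference of 0.0344 (0.00854 to 0.0602) did not pass the corrected level.

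The POU octamer and the homeobox core were also denser. ATGCAAAT, the octamer bound by POU factors, occurred 0.118 ± 0.00782 (SE) times per kb of cluster 2 and 0.0814 times per kb of the other peaks. The difference of 0.0364 (0.0208 to 0.0520) passed the corrected level, had the same sign on 18 of 20 chromosomes and made the ratio 1.45. The octamer was present in 19.5% of members and 15.6% of the other peaks. TAATTA, the core bound by many homeobox factors, occurred 0.442 ± 0.0177 (SE) and 0.354 times per kb, a difference of 0.0884 (0.0531 to 0.124) that passed on the same terms with 17 of 20 chromosomes. It was present in 46.2% of members and 45.6% of the other peaks. Both were denser than in clusters 4, 6 and 7 as well, by 0.0309 (0.0148 to 0.0470) for the octamer and 0.0700 (0.0335 to 0.107) for TAATTA. Neither passed the corrected level in the central 500 bp of the peaks, where the differences were 0.0446 and 0.0894. No ATGCAAAT contains TAATTA.

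The 226 octamers were spread over 19.5% of the members. A few windows held 2 close together and are shown as examples of dense sites, not of the typical member, chosen after their sequence was seen. They are chr13:63544773-63544811 within the member over Ptch1, chr12:107970338-107970401 at Bcl11b, a factor of deep-layer neurons, and chr17:9026035-9026071 nearest 1700010I14Rik, with octamers of either strand in capitals.
Ptch1: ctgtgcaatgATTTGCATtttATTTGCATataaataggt
Bcl11b: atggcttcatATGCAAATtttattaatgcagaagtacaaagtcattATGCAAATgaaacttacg
1700010I14Rik: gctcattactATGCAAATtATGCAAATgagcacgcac
Windows with several TAATTA, searched and capitalised likewise, are chr7:116284201-116284242 (nearest Plekha7) and chr14:55052626-55052685 (nearest Zfhx2).
Plekha7: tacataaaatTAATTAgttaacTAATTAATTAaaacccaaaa
Zfhx2: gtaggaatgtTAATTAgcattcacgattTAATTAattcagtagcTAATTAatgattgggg

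TAATTA varied among the members with the lists that called them. Its density was 0.334 ± 0.0275 (SE) per kb in the 376 members of RGC lists alone, 0.481 ± 0.0234 in the 469 called in both cell types and 0.504 ± 0.0610 in the 145 of IPC lists alone. The octamer showed no such order, at 0.117 ± 0.0154, 0.118 ± 0.00962 and 0.114 ± 0.0277. TTCCCA stood at 1.39 ± 0.0540, 1.28 ± 0.0319 and 1.21 ± 0.0961 per kb. Since the lists entered the choice of members, these are descriptions.

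Of the other words, CAGATG, an E-box bound by proneural factors, was sparser in cluster 2, at 0.752 against 0.827 per kb (difference -0.0750, -0.119 to -0.0315). That call was lost against clusters 4, 6 and 7, where the difference was -0.0159 (-0.0609 to 0.0290). The Sox core ACAAAG (difference 0.0667, 0.0229 to 0.111), the NFI core TTGGCA (0.0577, 0.0198 to 0.0956), the Tead core GGAATG (0.0386, 0.00171 to 0.0754) and the Hes and Hey E-box CACGTG (-0.0203, -0.0369 to -0.00381) had 95% intervals without 0 but did not pass the corrected level. For the palindromic E-box CAGCTG and the Gli core GACCACCC the differences were 0.0153 (-0.0207 to 0.0513) and -0.00245 (-0.00936 to 0.00445).

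**Figure D5:**
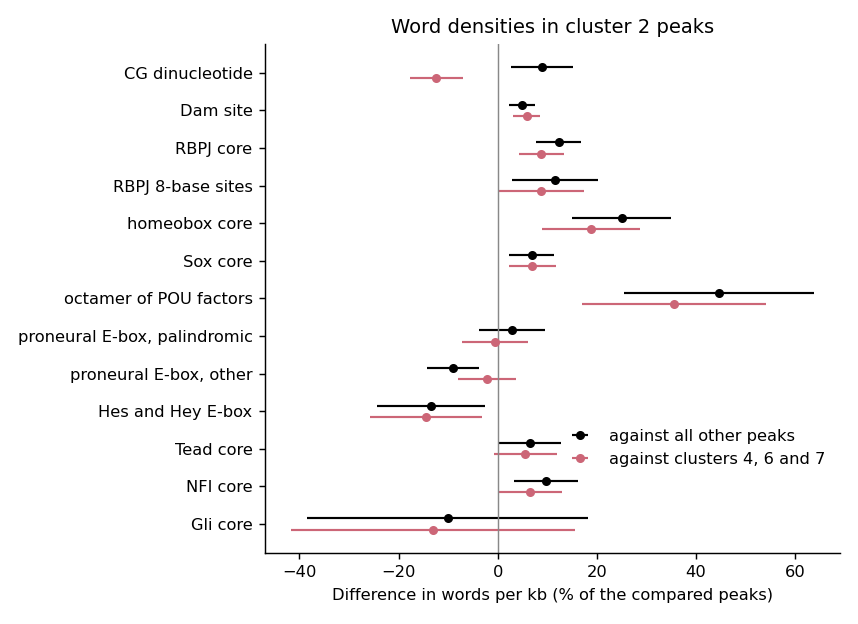
Difference in words per kb between cluster 2 peaks and all other peaks (black) or clusters 4, 6 and 7 (red), as a percentage of the density in the compared peaks (x axis), with 95% intervals as bars, for each word (y axis). The octamer of POU factors (0.118 against 0.0814 per kb) and the homeobox core (0.442 against 0.354) lie furthest to the right, and the RBPJ core lies above 0 in both comparisons.

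Base composition differed little from that of the other peaks and depended on which peaks were compared. Mean GC content was 46.5% in cluster 2 (SD 6.24, n = 990) and 45.7% in the other peaks, a difference of 0.728 percentage points (0.330 to 1.13) that passed the corrected level. It was not called in peaks of at least 1000 bp, at 0.258 (-0.166 to 0.682), and turned to -0.861 (-1.28 to -0.445) against clusters 4, 6 and 7. CG dinucleotides occurred 17.9 and 16.46 times per kb (difference 1.48, 0.445 to 2.51), short of the corrected level, and turned likewise to -2.54 (-3.63 to -1.45). Within cluster 2, mean GC content was 47.7% with 1 list and 44.0% with all 4. Soft-masked repeats of the reference made up 14.2% of the average member and 18.3% of the average other peak.

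GATC, the site that Dam methylates, occurred 3.05 times per kb in cluster 2 and 2.91 times in the other peaks, a difference of 0.141 (0.0652 to 0.217) that passed the corrected level. GATC sites also delimit the bins of the clustered signal, so this difference is not independent of the choice of members. The direction depended on the cluster compared: clusters 1, 8, 4 and 5 had higher densities (3.66, 3.60, 3.38 and 3.08), whereas clusters 6, 7 and 3 had lower ones (2.77, 2.60 and 1.001). The difference from cluster 4 was -0.332 (-0.420 to -0.243). Peaks without any GATC made up 40 members (4.04%) and 1991 of the other peaks (10.05%). Their share was lower than in cluster 2 in clusters 4 (2.01%), 6 (2.41%) and 7 (2.23%). With peaks lacking GATC left out of cluster 2 and of all other peaks, the difference in density was -0.0229 (-0.0989 to 0.0532). The 40 members without a GATC were 215 to 1084 bp wide with a median of 292.5 bp, and 36 of them were called in 1 list alone.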

How the data were processed

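TaDa libraries of the embryonic mouse cortex were analysed from the deposited peak positions, with 1 pooled list per condition and 1 consensus table with cluster numbers. The authors called broad peaks with MACS2 (named in the submitters' processing notes, build mm10) for each pair of Dam-fusion and Dam-only samples, kept those found in all pairs, merged the lists with bedtools and clustered length-normalised binding intensities by k-means. List membership was recomputed by overlap of at least 1 bp, and it matched the deposited names in all 20809 nuclear consensus peaks. Positions are counted from 1. Genes, start sites and features came from GENCODE vM21, and sequence from the RefSeq copy of GRCm38.p6. No per-sample values were used, and depth is unknown.

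Cluster 2 was compared with the other peaks in 21 measures by Newcombe intervals for shares, normal intervals for means and ratio-estimator intervals for words per kb. A difference was called where the interval at 99.762% (Bonferroni) excluded 0, and chromosomes with at least 10 members were compared for its sign. Neighbouring peaks are not independent, so intervals are probably too narrow. The methods were tested on simulated data in which each peak was drawn independently, so dependence between neighbouring peaks was not covered. The members, gene lists and words were chosen with earlier results of these data known.

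Genes were named by rule: Hes1, Hes5, Nrarp and Nepro, the genes with the most members (10, ties kept up to 15; a larger tie at 3 members left 5), up to 4 per gene list, genes with a start site in a member called in all 4 lists, genes of paired sites, and those of the 5 widest members and the longest chains. Some genes under this rule are not reported here. Others were named after their values were seen. Scripts ran in Python (3.11.15) and drew figures in Matplotlib (3.10.9), with SciPy (1.17.1) for intervals and pandas (2.3.3) over NumPy (2.4.6) for tables.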

Additional observations from a re-analysis of the deposited data

Results flagged for a closer look

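Signal outside the nuclear genome was found in cluster 2. The mitochondrial genome held 2 consensus peaks and both were assigned to cluster 2, with widths of 6614 bp and 5498 bp, so that they covered 74.3% of it. Both were called in RGC RBPJ, IPC RBPJ and IPC Notch and not in RGC Notch. They took no part in any comparison, and the files give no level in Dam-only samples to set them against. A nuclear member nearest Col19a1 (chr1:24612479-24613166, 688 bp, IPC Notch alone) shared 91.8% of its 31-base words with the mitochondrial genome. Among the other nuclear consensus peaks, 3 of cluster 6 shared any, nearest Myo3a (35.8%), Tyrp1 (31.3%) and Tex47 (9.24%). Whether reads of mitochondrial origin gave these peaks was not tested. These genes were named after their values were seen.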

How the results depend on the processing

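Of 142 values of tested measures under alternatives, 114 kept their direction and their side of the corrected level, among them every value of TTCCCA density. The rest follow as cluster 2 minus the compared peaks, and the cause was not tested except where stated. Against clusters 4, 6 and 7, start-site share (-10.3) and log10 distance (0.470) gained a call, direction turned for upstream share (-3.64), GC content (-0.861), CG density (-2.54) and CAGCTG (-0.00313), and CAGATG (-0.0159) lost its call. With start sites of all annotated genes, start-site share (0.797) and log10 distance (-0.0956) turned. In peaks of at least 1000 bp, upstream share turned (-0.810) and GC content (0.258), GATC (0.0755) and CAGATG (-0.0608) lost their calls. Upstream share by overlap of at least 1 bp also turned (-0.810). In thinned peaks, intronic (-2.79) and intergenic share (1.73) and CAGATG (-0.0579) lost their calls, CG density (1.91) gained one and GACCACCC turned (0.000489). In the central 500 bp, which hold less sequence, TAATTA (0.0894), ATGCAAAT (0.0446) and CAGATG (-0.0890) lost their calls and CG density (2.28) gained one. In the linear model, CG density (1.37) and ACAAAG (0.0689) gained a call. In peaks with at least 1 GATC, chosen after seeing the data, intronic (-5.05) and intergenic share (4.52) lost their calls and GATC density turned (-0.0229).

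Among descriptions, a cover of at least 50% of the peak gave 31.5% of members in RGC Notch, 22.0% in IPC RBPJ, 34.1% in IPC Notch and 31.7% in both cell types. Members of at least 1000 bp gave 86.4% in RGC RBPJ, 41.8% in RGC Notch, 37.7% in IPC RBPJ, 52.0% in IPC Notch and 60.3% in both cell types. Another member lay within 20 kb of 7.47% of members and within 100 kb of 22.1%.

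No paired analysis was possible because each list pools its samples and no value per sample was used. For the same reason no replicate was left out, and depth, peak height and the spread between samples are unknown. Intervals treat peaks as independent, which neighbouring peaks are not.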
